A study of Mus musculus with 4 samples.

Results

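A set of 9 genes that mark excitatory neurons of the cerebral cortex and their layers was followed across 4 arrays of mouse prefrontal cortex. They were taken by name from the gene name column of the scanner files, as non-control probes, and all 9 names are current symbols of the mouse RefSeq table. They are 9 of 24787 gene names of the array that this table knows, and 22 of its 56605 probes. Camk2a and Slc17a7 stand for excitatory neurons in general. Cux1, Cux2 and Rorb mark upper layers, and Fezf2, Bcl11b, Tbr1 and Foxp2 mark deep layers. Each group was 1 array, hybridised with a mix of 3 RNA samples from mice of strain B6J aged 3 months: wild-type on a starch diet, wild-type on a sucrose diet, Glo1 heterozygous on starch and Glo1 heterozygous on sucrose. Every group had eaten its diet for about 70 days from weaning at postnatal day 21. Glo1 encodes glyoxalase 1, which detoxifies methylglyoxal, and how the Glo1 allele was made is not given in the sources used here.

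The cortex is built of layers of excitatory, glutamate-releasing neurons, which are born in sequence and send their axons to different targets. Upper layers connect cortical areas with each other, layer 4 receives thalamic input, and deep layers project to the brainstem, spinal cord and thalamus. Transcription factors set and maintain these identities, so their transcripts serve as layer markers in adult tissue, although several of them are also active in neurons outside the cortex. Bcl11b and Foxp2 are well known in the medium spiny neurons of the striatum, which lies directly beneath the frontal cortex, and Tbr1 is known in projection neurons of the olfactory bulb.

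All levels below are processed signals as multiples of the array's own 75th percentile, and all changes are log2 differences of these levels. Because probes differ in how well they bind, levels are compared between arrays and not between genes. With 1 pooled sample in each group there was no biological replicate, so no change between a pair of arrays has an error between mice or a p-value. For such a change only the error of a spot can be given. The additive model further on gives p-values only by taking the interaction as error. The SD of a difference between single spots on a pair of arrays, estimated from probes printed 10 times, was 0.068 in the brightest quartile of probes. It was 0.118 in the next brightest quartile, from only 5 repeated probes, and 0.131 in the quartile below that, from 3. The scanner software's own error model was wider, at 0.2 log2 units for such a difference at every marker but Foxp2, where it gave 0.21.

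The wild-type arrays had a Glo1 level of 4.04 on starch and 5.53 on sucrose, against 2.74 and 3.04 on the heterozygous arrays, so Glo1 followed the labelled genotypes. Between 77.6% and 80.2% of the spots of an array were well above background, and no spot was saturated. The tissue label was set beside marker lists. All 9 markers and all 55 other genes of 4 cortical excitatory lists were well above background on every array. Of the 24787 gene names, 19176 had such a probe. Well above background too were 12 of 13 striatal genes on the array, all 6 olfactory bulb genes and all 6 choroid plexus genes. Presence alone thus cannot tell cortex from these other sources. The lists of these other sources differed between arrays far more than those of the cortex. The summed level of the striatal list was 34.3 on wild-type starch, 56.6 on wild-type sucrose, 52.6 on heterozygous starch and 29.5 on heterozygous sucrose. The bulb list summed to 8.45, 1.93, 7.87 and 4.51 in the same order, and the choroid plexus list to 0.581, 2, 0.532 and 68. The 8 pan-neuronal genes stayed between 288 and 310. In a tissue sample, fewer cells of a type and less RNA per cell cannot be told apart.

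Both general excitatory markers, Camk2a and Slc17a7, were lowest on the wild-type starch array. The list of 13 other broad excitatory genes was not. Its summed level was 184 on wild-type starch, 191 on wild-type sucrose, 176 on heterozygous starch and 185 on heterozygous sucrose. Camk2a, the alpha subunit of the calcium/calmodulin-dependent kinase that is abundant at excitatory synapses, had a level of 37 on wild-type starch, 53.7 on wild-type sucrose, 50.6 on heterozygous starch and 54 on heterozygous sucrose. The wild-type starch array thus stood 0.45 below the next array, and the other 3 arrays lay within 0.1 of each other. Its brightest probe lies on chromosome 18 at 61147519 to 61147578 of build mm9, plus strand. Slc17a7, the vesicular glutamate transporter VGLUT1 that loads glutamate into synaptic vesicles of cortical neurons, had levels of 3.49, 4.44, 3.99 and 4.68 in the same order (chromosome 7, 52430841 to 52430900, plus strand). Both genes thus shared their order of arrays, with the heterozygous sucrose array highest, although its distance from wild-type sucrose was within 2 spot SDs for both. On sucrose Camk2a was higher by 0.54 and Slc17a7 by 0.35 in wild-type mice, and by 0.1 and 0.23 in heterozygous mice.

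**Figure D1:**
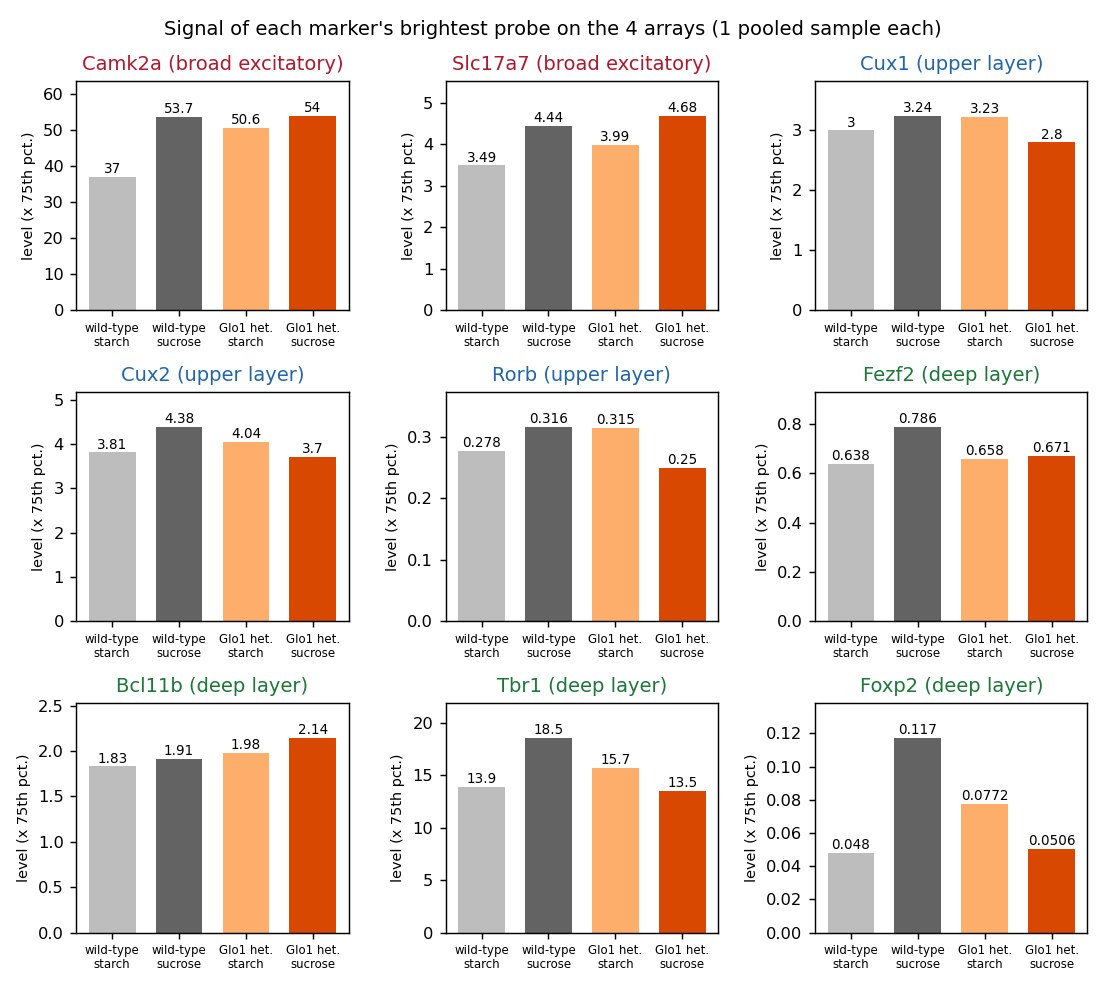
Bars give the level of the brightest probe of each marker, as a multiple of the array's 75th percentile, on the 4 arrays, each 1 pooled sample with no error bar. Camk2a and Slc17a7 are lowest on wild-type starch (37 and 3.49), Cux1, Cux2, Rorb and Tbr1 lowest on heterozygous sucrose, and Foxp2 stands out by its level of 0.117 on wild-type sucrose.

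By their brightest probes, the 3 upper-layer markers differed little between arrays. These probes had their highest level on wild-type sucrose and their lowest on heterozygous sucrose, although heterozygous starch equalled the highest within 0.01 for Cux1 and Rorb. The lowest array was below wild-type starch by only 0.1 for Cux1, 0.04 for Cux2 and 0.15 for Rorb, all within 2 spot SDs. The gene Cux1 is known for a cut-family homeodomain factor of upper-layer neurons, but its locus has several products. The brightest probe is assigned to transcript variant 2, and which product it reports was not looked up. This probe had levels of 3, 3.24, 3.23 and 2.8 from wild-type starch and sucrose to heterozygous starch and sucrose (chromosome 5, 136724181 to 136724240, minus strand). Cux2, its paralog and a factor of layer 2 to 4 neurons, had levels of 3.81, 4.38, 4.04 and 3.7 (chromosome 5, 122308503 to 122308562, minus strand). Rorb, an orphan nuclear receptor typical of layer 4, had levels of 0.278, 0.316, 0.315 and 0.25 (chromosome 19, 19050603 to 19050662, minus strand). Other probes gave another order. A Cux1 probe assigned to variant 3 (A_66_P112487) and the upstream Cux2 probe (A_55_P2720570), both described further on, were lowest on wild-type starch and highest on heterozygous starch. Their ranges over the arrays, 0.49 and 0.66, were wider than those of the brightest probes, 0.21 and 0.24. A Cux2 probe near the brightest (A_51_P180463) was highest on heterozygous starch, at 1.75 against 1.72 on wild-type sucrose. By the brightest probes, in heterozygous mice the sucrose array was lower than the starch array by 0.21 for Cux1, 0.13 for Cux2 and 0.33 for Rorb. Only the Cux1 and Rorb differences exceeded 2 spot SDs. On sucrose the heterozygous array was lower than the wild-type array by 0.21, 0.24 and 0.34, and all 3 exceeded 2 spot SDs. None of these differences, on either comparison, exceeded 2 errors of the software's model. The whole array gives a scale for these shifts: the median change of the brightest quartile of probes in the last comparison was -0.05.

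The deep-layer markers did not move as a block. Fezf2, a zinc finger factor needed for corticospinal neurons of layer 5, had levels of 0.638, 0.786, 0.658 and 0.671 in the order used above (chromosome 14, 13175057 to 13175116, minus strand). Its wild-type sucrose value was highest, by 0.23 over the next array, which is just within 2 spot SDs. Bcl11b, also called Ctip2, acts downstream of Fezf2 in these neurons and had levels of 1.83, 1.91, 1.98 and 2.14 (chromosome 12, 109153847 to 109153906, minus strand). Neighbours in this order differed by at most 0.11, within 2 spot SDs. Tbr1, a T-box factor of layer 6 neurons, had levels of 13.9, 18.5, 15.7 and 13.5 (chromosome 2, 61652093 to 61652152, plus strand). Tbr1 was higher on sucrose by 0.41 in wild-type mice and lower by 0.22 in heterozygous mice.

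Foxp2, a forkhead factor of layer 6 corticothalamic neurons, varied most. Its level was 0.048 on wild-type starch, 0.117 on wild-type sucrose, 0.0772 on heterozygous starch and 0.0506 on heterozygous sucrose, from processed signals of 85.5, 222.2, 145.3 and 97.7 intensity units. The starch array of the wild type and the sucrose array of the heterozygotes were alike within 0.08, and the other arrays stood 0.61 and 1.2 above the second lowest. The change with sucrose was 1.28 in wild-type mice, a 2.43-fold higher signal, and -0.61 in heterozygous mice. The change with genotype was 0.68 on starch and -1.2 on sucrose. Of the probes in the same quartile of brightness, 6.03%, 5%, 4.49% and 4.39% were past 1.5-fold in these comparisons. Each Foxp2 change exceeded 2 spot SDs, with an SD of 0.131 that rests on 3 probes. Under normexp background correction, which adds an offset and so compresses dim signals, they were 0.69, -0.38, 0.3 and -0.76. The measured probe lies on chromosome 6 at 15388094 to 15388153, plus strand, and the first 30 of its 60 bases read 5′ to 3′ as follows, since the widest change rests on this single probe.
Foxp2, measured probe A_65_P11126: gttgacaaatttttactgtgactatttatt
The other Foxp2 probe, 241 kb upstream and designed on a cDNA of embryonic spinal ganglion, was not well above background on any array.

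Read across the comparisons, the changes of all 9 brightest probes were above 0 with sucrose in wild-type mice and with genotype on starch, several of them within the spot error. Both comparisons subtract the same wild-type starch array. With sucrose in wild-type mice the changes ran from 0.06 for Bcl11b to 1.28 for Foxp2, with a median of 0.3, against a median of -0.003 over the 42094 probes well above background on all arrays. Foxp2 alone was past 1.5-fold, which is 0.58 on the log2 scale, while 5.98% of all probes were past it in either direction. In all, 6 markers changed by more than 2 spot SDs and 3 by more than 2 errors of the software's model. Of all probes 49.4% were higher, and of the brightest quartile, which holds 6 of the 9 markers, 49.9%. On starch, heterozygous against wild-type, the median was 0.17 and the range 0.04 for Fezf2 to 0.68 for Foxp2. With the mean over a gene's probes the median was 0.32, and other probes of Cux1, Cux2 and Bcl11b reached 0.64, 0.66 and 0.58. By the brightest probes only 4 markers, Camk2a, Slc17a7, Tbr1 and Foxp2, changed by more than 2 spot SDs here. Changes of 2 markers exceeded 2 errors of the software's model. Cux1, Cux2, Rorb, Fezf2 and Bcl11b, at 0.11, 0.08, 0.18, 0.04 and 0.12, were within 2 spot SDs. Again Foxp2 alone was past 1.5-fold, against 4.88% of all probes, while 47.4% of all probes and 44.5% of the brightest quartile were higher. Under normexp background correction no marker was past 1.5-fold, and by the most upstream probe of each gene 3 were. The wild-type starch array was the lowest of the 4 for 5 markers, as it was for 28.4% of all probes.

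With sucrose in heterozygous mice 4 markers were higher and 5 lower, where 49.3% of all probes and 42.2% of the brightest quartile were higher. The median was -0.13, with a range from -0.61 for Foxp2 to 0.23 for Slc17a7. Foxp2 alone was past 1.5-fold, against 4.85% of all probes, and under normexp background correction no marker was. In all, 5 markers changed by more than 2 spot SDs, with Slc17a7 higher and Cux1, Rorb, Tbr1 and Foxp2 lower, and 1 by more than 2 errors of the software's model. Camk2a (0.1), Bcl11b (0.11), Fezf2 (0.03) and Cux2 (-0.13) were within 2 spot SDs. On sucrose, heterozygous against wild-type, 3 markers were higher and 6 lower, with a median of -0.23. Foxp2 alone was past 1.5-fold, against 4.25% of all probes, and 46.2% of all probes were higher. In the brightest quartile 33.8% were higher, so a count of 3 of 9 is near that background. Camk2a was at 0.01 in this comparison and changed sign between normalisations, from -0.03 to 0.12.

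**Figure D2:**
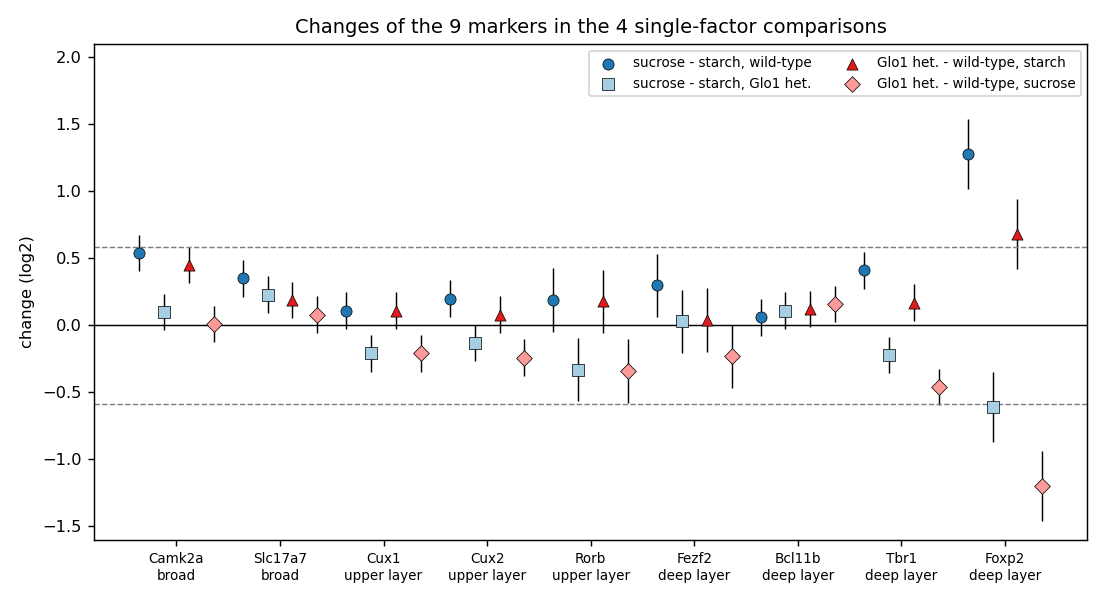
Points give the log2 change of each marker's brightest probe in the 4 single-factor comparisons, vertical lines plus and minus 2 SDs of a single-spot difference, and dashed lines 1.5-fold. Circles (sucrose in wild-type) and triangles (genotype on starch) lie above 0 for all 9 markers, while diamonds (genotype on sucrose) lie below 0 for 6, with Foxp2 at -1.2.

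The heterozygous sucrose array set against the wild-type starch array changes diet and genotype together. The median of the 9 markers was then 0.07, with 5 higher and 4 lower, while 47.7% of all probes were higher. No marker was past 1.5-fold, against 7.34% of all probes, although Camk2a passed it under quantile normalisation (0.69) and cyclic loess (0.65). Camk2a (0.55), Slc17a7 (0.42) and Bcl11b (0.22) were higher by more than 2 spot SDs. The values of Tbr1 (-0.05) and Foxp2 (0.08) changed sign between normalisations. The interaction, the diet change in heterozygotes minus the one in wild-type mice, was below 0 for 8 of 9 markers with a median of -0.33. Of all probes 50.5% were above 0, and of the brightest quartile 45.2%. Tbr1 (-0.63) and Foxp2 (-1.89) were past 0.58 in size, as were 9.18% of all probes. Under normexp background correction the Foxp2 value was -1.06. Bcl11b, at 0.05, was the only marker above 0 and changed sign between normalisations. Values below 0 were not particular to the markers. All 8 pan-neuronal, all 8 inhibitory neuron and all 12 measured striatal genes were below 0 (medians -0.08, -0.18 and -2.17), while all 6 olfactory bulb genes were above. Of 55 other cortical excitatory genes 30 were below 0, with a median of -0.1.

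An additive model of diet and genotype over all 4 arrays, which leaves 1 residual degree of freedom and takes the interaction as error, called no marker. The limma fit gave an adjusted p under 0.05 to 0 of 42094 probes for either factor, with 8.8% of probes at an unadjusted p under 0.05 for diet and 6.42% for genotype. For diet, 28 probes were called under normexp background correction and 1 with a trended prior variance, and the brightest probe of no marker was among them. The smallest adjusted p of a marker in limma was 0.564 for Slc17a7 with diet, where the estimate was 0.29 and the unadjusted p 0.048. For genotype it was 0.74, for Camk2a with an estimate of 0.23 and for Bcl11b with 0.14.

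The 6 markers with more than 1 probe allow a look along the gene. For 5 of them more than 1 probe was measured on all arrays, and for all 9 markers the brightest probe was also the most 3′ one. Cux1 had 7 probes, and the files assign them to different transcripts. The gene is known to give, by alternative splicing, both the homeodomain factor and the Golgi protein CASP, whose last exons lie downstream of those of the homeodomain form; which product each probe reports was not looked up here. The 2 probes assigned to transcript variant 2, among them the brightest, lie downstream of all other Cux1 probes. They changed by 0.08 and 0.11 with genotype on starch. The brightest probe stands for Cux1 in the counts and medians over the markers, so there it may not report the homeodomain factor. The 3 probes assigned to transcript variant 3, which lie 18.1 to 26.2 kb upstream of the brightest probe, changed by 0.34 to 0.58. The value of 0.58 came from a probe whose level was at most 0.0133. The remaining 2 probes are assigned to Ensembl transcripts alone. The one 114 kb upstream (A_65_P08767) had levels of 0.0878, 0.0758, 0.114 and 0.099, and was the only measured probe of the 9 markers below 0 with sucrose in wild-type mice (-0.21, within 2 spot SDs). It was 0.38 higher with genotype on either diet, where the brightest probe changed by 0.11 and -0.21. The one 235 kb upstream (A_55_P2721424) had levels of 0.201, 0.247, 0.313 and 0.249, highest on heterozygous starch. The first 30 bases of the brightest probe of the variant 2 and variant 3 sets are shown, because a single symbol here covers probes of different transcripts.
Cux1, variant 2, A_52_P442676: tccatgatttgagttctgcttgcttcttta
Cux1, variant 3, A_66_P112487: tagaccaactgctactgatctgtcagcgta
The levels of A_66_P112487 were 1.87, 2.26, 2.63 and 2.11 from wild-type starch and sucrose to heterozygous starch and sucrose. Its highest array was heterozygous starch, whereas the variant 2 probe had like levels of 3.24 and 3.23 on wild-type sucrose and heterozygous starch.

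The wild-type starch array was also set apart by probes far upstream in Cux2, Bcl11b and Camk2a. The Cux2 probe 36.9 kb upstream of the brightest had levels of 0.208, 0.304, 0.329 and 0.295, so that wild-type starch was lowest by 0.5. The brightest Cux2 probe differed by 0.24 over all arrays. The Bcl11b probe 87.9 kb upstream, designed on the start of an Ensembl transcript, had levels of 0.257, 0.356, 0.384 and 0.371, and here too the first array alone was low. The first 30 bases of each pair of probes are printed to show which stretches gave the unequal values.
Cux2, most 3′ probe A_66_P122699: gatctgcaaacagatccgtccactccacat
Cux2, upstream probe A_55_P2720570: accgtaaatcttttggatattgttcgcaca
Bcl11b, most 3′ probe A_51_P171772: acatgtgagtactgcggcaaggtcttcaag
Bcl11b, upstream probe A_66_P103445: cctaccagaccccgaaagaaaagtgtcaga
The Camk2a probe 44.6 kb upstream changed by 0.68 with sucrose in wild-type mice and by 0.57 with genotype on starch, against 0.54 and 0.45 for the brightest. The remaining Camk2a probe, 3.06 kb upstream, changed by 0.29 and 0.1. The Tbr1 probe 9.54 kb upstream went the other way and changed by 0.14 and -0.03. Across the pairs of probes from different markers, the longest stretch of bases shared on either strand was 10 of 60.

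**Figure D3:**
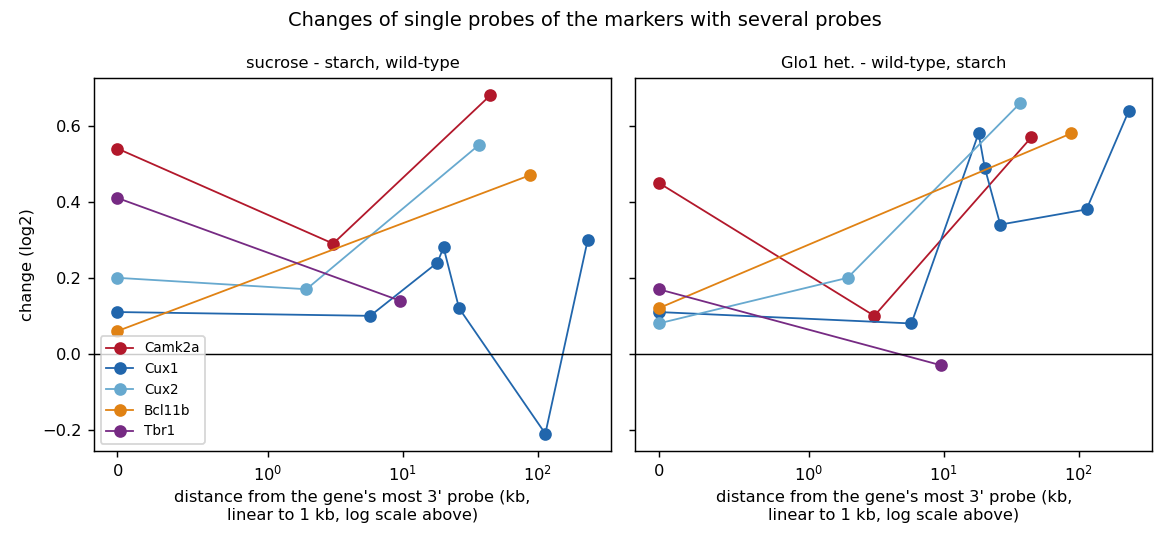
Points give the log2 change of every probe of Camk2a, Cux1, Cux2, Bcl11b and Tbr1 that was well above background on all arrays, against its distance in kb from the gene's most 3′ probe (linear to 1 kb, then logarithmic); lines join probes of a gene. With genotype on starch the most upstream probes of Camk2a, Cux1, Cux2 and Bcl11b lie between 0.57 and 0.66, above the 3′ probes.

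The same subtraction was made for every gene with probes at least 10 kb apart on 1 strand, 4207 genes in all, as a background for the markers. The change of the most upstream minus that of the most downstream probe had a median of 0.07 for genotype on starch, with 59.5% of genes above 0, and of 0.03 for sucrose in wild-type mice, with 55.4% above 0. The 4 markers in this set, Camk2a, Cux1, Cux2 and Bcl11b, had values of 0.12, 0.53, 0.58 and 0.47 for genotype on starch, all above 0. For sucrose in wild-type mice they had 0.14, 0.19, 0.35 and 0.41. On sucrose, heterozygous against wild-type, the same 4 markers had 0.02, 0.22, 0.2 and -0.1, against a median over all genes of 0.01 with 53.1% above 0. For sucrose in heterozygous mice they had 0.03, -0.12, -0.03 and -0.16, against -0.02 with 45.5% of all genes above 0. In each of these 4 markers the upstream and downstream probes are assigned to different transcript entries. What produced the unequal probe values was not tested.

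Foxp2 was high on the same arrays as most genes of the striatal list. Of 12 striatal genes measured on all arrays, 12 were higher with sucrose in wild-type mice, with a median of 1.15, and 12 lower in heterozygous mice, with a median of -1.03. With genotype 11 were higher on starch (median 0.93), all but the dopamine receptor gene Drd2 (-0.22), and 12 lower on sucrose (median -1.32). Among those past 2-fold with sucrose in wild-type mice were the dopamine receptor gene Drd1 (1.45), the adenosine receptor gene Adora2a (1.8), the signalling regulator Rgs9 (1.19), Gpr6 (1.81), Six3 (2.7) and Ido1 (1.9). In heterozygous mice Drd1 changed by -1.27 and Adora2a by -1.79, where Foxp2 changed by -0.61. The Foxp2 changes thus had the sign of the striatal median in all 4 comparisons. So had those of Cux1, Cux2, Rorb and Tbr1 by their brightest probes, though smaller and several within 2 spot SDs. The comparisons share arrays, so their signs are not independent. The part of striatal RNA in the Foxp2 signal was not tested. Bcl11b, the other marker known in striatal neurons, changed by 0.06 and 0.11 with sucrose in wild-type and heterozygous mice by its brightest probe, and by 0.47 and -0.05 by its upstream probe (A_66_P103445). The interaction was 0.05 by the former, -0.52 by the latter and -0.24 by the mean of both.

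**Figure D4:**
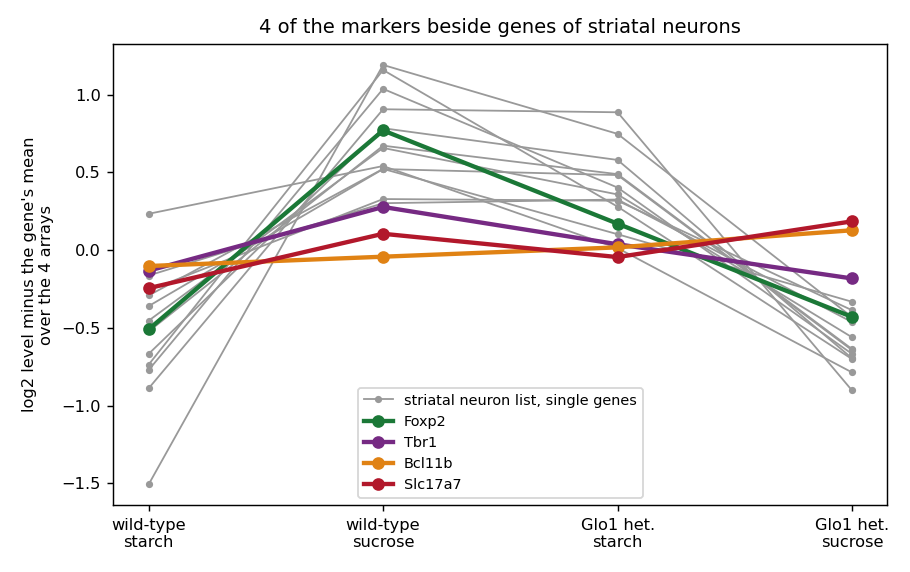
Lines join the log2 levels of a gene on the 4 arrays, each minus the gene's own mean. Foxp2 (0.048, 0.117, 0.0772 and 0.0506 as levels) is high on wild-type sucrose and heterozygous starch, as are 11 of the 12 striatal genes (grey), all but Drd2, which is lower on heterozygous than on wild-type starch, while Bcl11b and Slc17a7 are highest on heterozygous sucrose.

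Genes whose 4 values were close to those of Foxp2 were sought among 870 genes with a range at least 0.75 times as wide. By the root mean square difference of the centred log2 values over the 4 arrays, the closest included Prdm12 (0.092), Zg16 (0.113), Kdf1 (0.141) and Slc5a7 (0.147). Slc5a7 is the choline transporter of cholinergic neurons, with levels of 0.0504, 0.108, 0.0774 and 0.0407. With only 4 points, such closeness is a description.

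Tbr1, which bulb neurons also use, had the sign of the olfactory bulb median only with sucrose in heterozygous mice. The 6 bulb genes were lower with sucrose in wild-type mice, with a median of -2.43, and Eomes, a T-box factor related to Tbr1, changed by -3.17, where Tbr1 changed by 0.41. On sucrose the bulb genes were higher in heterozygous than in wild-type mice (median 1.47), and Tbr1 changed by -0.46. With sucrose in heterozygous mice both were lower, with a median of -0.83 for the bulb genes and a change of -0.22 for Tbr1. With genotype on starch the values were -0.09 and 0.17. The part of bulb RNA in the Tbr1 signal was not tested. The general neuron genes were nearly level, with medians of 0.02 for sucrose in wild-type mice, -0.05 in heterozygous mice, -0.02 for genotype on starch and -0.11 on sucrose. The 8 inhibitory neuron genes had medians of -0.01, -0.12, 0.01 and -0.2 in the same order, with none past 1.5-fold.

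Other genes of cortical excitatory neurons gave a wider view. Of 55 such genes, 37 were higher with sucrose in wild-type mice, with a median of 0.11, 30 in heterozygous mice (0.03), 31 with genotype on starch (0.02) and 23 with genotype on sucrose (-0.06). In the broad excitatory list 4 of 13 genes were higher with genotype on starch, with a median of -0.03, where the 9 markers had 0.17. Higher in the other lists were 6 of 14 upper-layer genes (-0.05), 11 of 14 layer 5 genes (0.03) and 10 of 14 layer 6 and subplate genes (0.12). Whether the 9 markers differ from these lists was not tested. The share of these 55 genes past 1.5-fold was 9.09% for sucrose in wild-type mice, 10.9% in heterozygous mice, 1.82% for genotype on starch and 14.5% on sucrose, beside 5.98%, 4.85%, 4.88% and 4.25% of all probes.

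**Figure D5:**
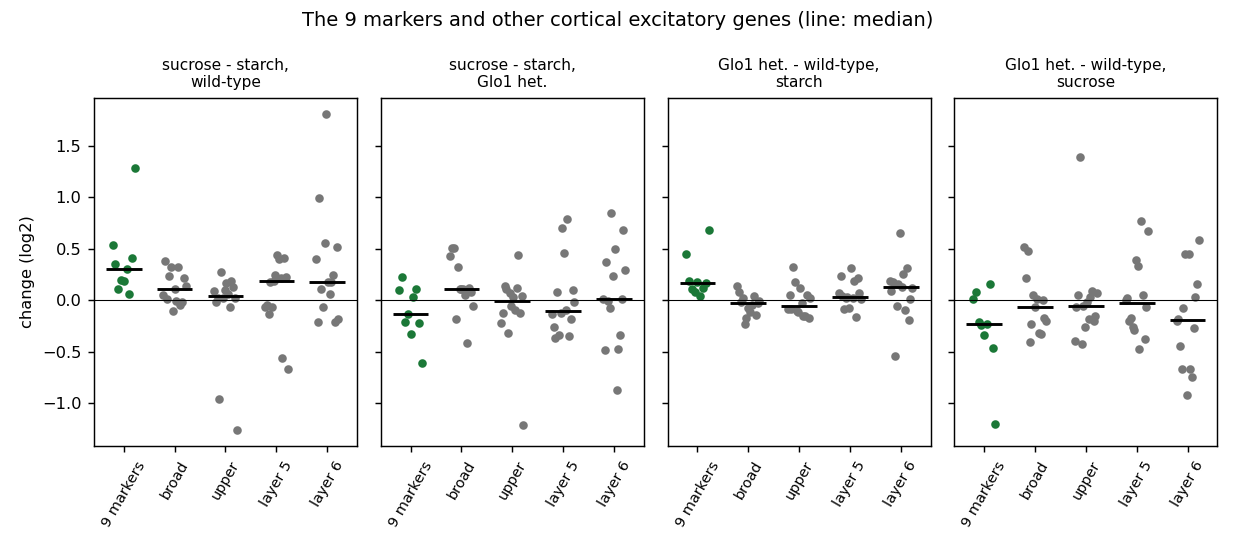
Points give the log2 change of single genes in the 4 single-factor comparisons for the 9 markers (green) and for the broad, upper-layer, layer 5 and layer 6 lists (grey), with the median as a line. The medians of the 9 markers are 0.3, -0.13, 0.17 and -0.23, and the grey medians lie between -0.19 and 0.18.

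Of these 55 genes, 16 passed 1.5-fold in at least 1 pairwise comparison, beside 14.2% of all probes and 13.3% of the brightest probes of 19176 genes. By list, they were 1 of 13 broad genes, 2 of 14 upper-layer genes, 4 of 14 layer 5 genes and 9 of 14 genes of the layer 6 and subplate list. The difference between the lists was not tested. Oprk1, the kappa opioid receptor gene, had levels of 0.184, 0.645, 0.289 and 0.342 from wild-type starch and sucrose to heterozygous starch and sucrose. Its level was thus highest on wild-type sucrose by far, with a change of 1.81, and it is also a gene of striatal neurons. Ntsr1, the neurotensin receptor gene of corticothalamic neurons, was highest there too, with levels of 0.441, 0.874, 0.501 and 0.646. Ctgf and Cplx3, genes of the subplate, were lowest on heterozygous sucrose, at 1.66 and 0.152, with changes of -0.67 and -0.74 against wild-type sucrose. Rprm was lower in heterozygous mice on both diets, by 0.54 on starch and 0.67 on sucrose. Hs3st4, Zfpm2 and Sulf1 were highest on heterozygous sucrose, with changes against wild-type starch of 0.68, 1.01 and 0.63. Sema3e, an axon guidance gene, changed by 0.59 with genotype on sucrose.

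In layer 5, Crym, a thyroid hormone binding protein gene, changed by 0.7 with sucrose in heterozygous mice and Fam84b by 0.79. Npr3, a natriuretic peptide receptor gene, was 0.76 higher on heterozygous sucrose than on wild-type starch. Stac was lowest on wild-type sucrose, at 0.148 against 0.236, 0.238 and 0.235 on the other arrays. In the upper-layer list, Inhba, the activin A subunit gene that synaptic activity induces, was low on both sucrose arrays, with levels of 1.85, 0.773, 1.87 and 0.812. Sucrose thus went with a change of -1.26 in the wild type and of -1.21 in heterozygotes, while the genotype changes were 0.02 and 0.07. Mdga1, a cell adhesion gene, was low on wild-type sucrose alone, with levels of 2.18, 1.12, 2.71 and 2.92. In the broad list Neurod2, a bHLH factor of cortical excitatory neurons, alone passed 1.5-fold, by 0.59 between heterozygous sucrose and wild-type starch.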

How the data were processed

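RNA of prefrontal cortex was labelled with Cy3 from 200 ng and read on 4 one-colour Agilent arrays; scanner signals came from Feature Extraction 11.5.1.1, per the file headers and the submitters' processing notes. The deposited intensity used was the processed signal, which that software corrects for background. The deposited value table is a ratio, each processed signal divided by its array's 75th percentile, to within a relative difference of 4.5e-07. Here each log2 processed signal was scaled to the 75th percentile of the non-control spots, outlier spots were left out and spots of a probe averaged. Of 56605 probes, 42094 were well above background on all 4 arrays and were kept. A gene is represented by its brightest probe. Levels have no replicate, since each group is 1 array of mixed RNA; the number of arrays limits the precision. Changes were counted past 1.5-fold, and an additive limma model (limma 3.58.1, R 4.3.3) with Benjamini-Hochberg adjustment was fitted over all 42094 probes and tested on simulated data. Named genes are all markers with every probe, the listed excitatory genes past 1.5-fold in any pairwise comparison, genes of other lists past 2-fold beside a result, and the 5 genes closest to the marker with the widest range; 1 gene that this rule names is not reported here. The markers and gene lists were chosen with earlier results of these data known. The comparison of upstream with downstream probes, and the most upstream probe as an alternative, were chosen after seeing the data. Other scalings, background corrections, probe choices and filters were tried. Coordinates are those of build mm9 in the files, and no genome was used to place probes in exons or introns. Probe sequences are from the scanner files, and none is shown for Camk2a.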

Additional observations from a re-analysis of the deposited data

Results flagged for a closer look

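By their brightest probes, Foxp2 and Tbr1 changed in opposite directions in the groups compared, each time by more than 2 spot SDs. For Tbr1 the other probe did not show this. It changed with genotype by -0.03 on starch and -0.52 on sucrose, and with sucrose by 0.14, within 2 spot SDs, in the wild type and by -0.36 in heterozygotes. Its interaction was -0.5, against -0.63 for the brightest probe. Foxp2 was higher with sucrose by 1.28 in wild-type mice, and its value in heterozygous mice was -0.61, so that the changes differed by -1.89. Its change with genotype was 0.68 on starch and -1.2 on sucrose, a difference of the same -1.89, since both come from the same 4 values. Under normexp background correction this difference was -1.06. With sucrose Tbr1 changed by 0.41 in the wild type and by -0.22 in heterozygotes, a difference of -0.63. Its change with genotype was 0.17 on starch and -0.46 on sucrose, again -0.63 apart. With 1 array in each group, the difference was not tested for either gene.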

How the results depend on the processing

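No paired analysis was possible because each group has 1 array, and for the same reason no array could be left out. Across the alternatives, 93 medians and counts over the markers stayed within the spot error or 1.5 times the count and 15 did not, all of which are given here. Of the values of single markers and of the shares of all probes, 374 stayed and 70 moved. The counts that stayed include values that had no room to move. The deposited value table is the same ratio, and neither it nor keeping outlier spots changed any marker value. Slc17a7, Rorb, Fezf2 and Foxp2, with 1 measured probe each, could not move with the choice of probe. Under normexp background correction no marker was past 1.5-fold with sucrose in heterozygous mice (0) or with genotype on starch (0), and the median with both factors changed went from 0.07 to -0.02. Quantile normalisation and cyclic loess each put 1 marker, Camk2a, past 1.5-fold with both factors changed (0.69 and 0.65). With the mean over a gene's probes, the median was 0.32 for genotype on starch and -0.16 on sucrose, and 1 marker was past 0.58 in the interaction. With the most upstream probe, an alternative chosen after seeing the data, the counts past 1.5-fold were 2 with sucrose in wild-type mice, 3 with genotype on starch and 1 with both factors changed. The medians with that probe were 0.57 for genotype on starch, -0.04 on sucrose, 0.31 with both factors changed and -0.52 for the interaction. The cause of these shifts was not tested. Without a filter on dim probes, 13.2% of probes were past 1.5-fold with sucrose in wild-type mice, and among probes above the median signal 2.27%. The additive limma fit called 28 of all probes for diet under normexp and 1 with a trended prior variance, and otherwise 0 for either factor. It called 0 markers in every alternative run, with the smallest adjusted p of a marker between 0.259 and 0.814 for diet and between 0.611 and 0.789 for genotype.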
